A study of Homo sapiens with 12 samples.

Results

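The p53 target genes CDKN1A, BTG2, MDM2, ZMAT3, TNFRSF10B, FAS, BAX, SESN1, TP53I3 and SPATA18 were followed through the knockdown of 3 splicing factors in a human embryonic kidney line. The 10 genes were chosen by symbol, mapped from their Ensembl identifiers, among 60554 gene identifiers in each library, and all 10 passed the filter on low counts that left 29003 genes for testing. RNA was sequenced from cells that had received SMARTpool siRNA against RBM17, SMARTpool siRNA against U2SURP, SMARTpool siRNA against CHERP, or a non-targeting control siRNA. Each group had 3 libraries, 12 in total. No pool is named for the control siRNA, which may therefore be a single sequence set against pools. All 4 groups are a single line at the same passage, given as HEK293 for its source and as HEK293T for its name. HEK293T carries the large T antigen of SV40 in every group, control included. No time of harvest after transfection is given in the sources used here. All of RBM17, U2SURP and CHERP bind RNA and associate with the U2 small nuclear ribonucleoprotein, the particle that recognises the branch site of introns.

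p53 is a transcription factor that binds response elements near its target genes after DNA damage and other stresses. Its targets halt the cell cycle, repair DNA, promote cell death, adjust metabolism and, through MDM2, bring p53 itself back down. Large T antigen binds p53 and blocks much of its activity as a transcription factor, so levels of these mRNAs in HEK293T cells need not follow p53 as they do in cells without it. Many of the targets also have basal transcription that does not depend on p53.

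The libraries held 252505520 to 320986785 counts each. Levels are in CPM, counts scaled to a common library size (TMM), given for libraries 1, 2 and 3 of a group in that order or as mean ± SD over the 3. A gene was called where edgeR's quasi-likelihood test gave a Benjamini-Hochberg adjusted p under 0.05 over all genes tested, and log2 fold changes are given ± SE. Whether the 3 libraries of a group were grown as separate cultures is not labelled, so p-values reflect only spread between libraries, possibly a technical one. That spread was estimated over all 4 groups in 1 fit, so groups outside a comparison also enter its p-value. Library names run in blocks by group, so a batch of preparation and the group cannot be told apart. In bulk RNA a fold change cannot tell fewer expressing cells from less RNA per cell. Counts per gene add all its transcripts, so a change in coding mRNA cannot be told from one in misspliced RNA. Each siRNA lowered its target: RBM17 averaged 26.5 ± 0.523 CPM in RBM17 knockdown and 115 ± 2.73 CPM in control, U2SURP 144 ± 5.65 CPM in U2SURP knockdown and 471 ± 33.3 CPM in control, and CHERP 18.0 ± 0.788 CPM in CHERP knockdown and 61.3 ± 1.06 CPM in control. All 9 markers of the line were detected, with summed levels of 853 to 967 CPM in RBM17 knockdown, 727 to 786 CPM in U2SURP knockdown, 730.0 to 845 CPM in CHERP knockdown and 727 to 807 CPM in control, although PAX2 and LHX1 averaged only 1.06 and 1.15 CPM. The sums hide changes in single markers. Of the 9 line markers, 6 were called higher and none lower in RBM17 knockdown. In U2SURP knockdown 2 were higher and 4 lower, and in CHERP knockdown 3 higher and 4 lower. Of all genes tested 25.4%, 21.1% and 22.8% were called higher and 29.3%, 22.2% and 24.6% lower in RBM17, U2SURP and CHERP knockdown. Fibroblast markers summed to 10.4 to 14.9 CPM over the 9 knockdown libraries and 17.9 to 22.4 CPM in control. COL1A1 made up most of these sums, averaging 14.0 CPM over all libraries and 18.9 CPM in control. COL1A2, DCN, LUM and THY1 averaged under 0.1 CPM over all libraries. Blood markers summed to at most 4.85 CPM and endothelial markers to at most 1.52 CPM in any library. The share of counts from mitochondrially encoded genes moved with the groups, with 4.86 ± 0.195% after RBM17 siRNA, 5.06 ± 0.104% after U2SURP siRNA and 4.25 ± 0.325% after CHERP siRNA, against 8.30 ± 0.410% in control. The part of that share in the results was not tested beyond a refit without those genes, which left the number of called members at 7, 4 and 8.

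The motif that p53 recognises is a pair of half-sites of 10 bases each, and matches mark where the family could be bound. The 5 printed here were not ranked over the 10 genes. Each passed a limit of 3 mismatches in promoter windows or 2 in transcripts. The p53 response element reads alike on both strands, and it was searched without a gap between half-sites in 300-base promoter windows (250 bases before to 50 after a start, RefSeq, GRCh38.p14) and in GENCODE 29 transcripts. Of the 10 genes, 9 (all but TNFRSF10B) had promoter windows to search, 17 in total. A motif match with up to 3 mismatches was found in windows of 3 genes, and one with up to 2 in windows of 2. Sequence outside those windows and transcripts was not searched, so elements there could not be found. Sequences are 5′ to 3′ on the strand of the gene, and capitals mark the 4 core bases of each half-site.
MDM2: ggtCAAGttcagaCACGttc
FAS: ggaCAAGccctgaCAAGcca
SESN1: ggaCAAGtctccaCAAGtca
BAX: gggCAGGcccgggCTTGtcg
ZMAT3: ggtCATTttcaaaCTTGtct
The MDM2 match (GRCh38, chr12:68808923-68808942, plus strand) had 2 mismatches to the motif, lay 94 bases before an alternative start inside the gene, and was intronic in 7 of 34 annotated transcripts. The FAS match (chr10:88991309-88991328, plus strand) had 2 mismatches, lay 122 bases before an alternative start, and was intronic in 11 and exonic in 2 of 20 transcripts. The SESN1 match (chr6:109009018-109009037, minus strand) had 3 mismatches, lay 49 bases before an alternative start, and was intronic in 2 of 7 transcripts. The BAX match (chr19:48955213-48955232, plus strand; 2 mismatches, intronic in 10 and exonic in 1 of 13 transcripts) and the ZMAT3 match (chr3:179019841-179019860, minus strand; 2 mismatches, exonic in 1 of 3 transcripts) came from the transcript search. The ZMAT3 match lay near the 3′ end of the gene (179017223 to 179072279, minus strand), far from its start. Its first core, CATT, lacks the final G that every other printed core has. A match with up to 3 mismatches was present in 5.20% of all 35116 windows, and one with up to 2 in 0.649%. These shares count single windows, whereas the 3 and 2 genes were each counted over all their windows. The shares are therefore not like for like with those counts. In transcripts a match with up to 2 mismatches was present for 11.9% of 19660 protein-coding genes and for 3 of the 10. These matches describe sequence and were not tested for binding.

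CHERP knockdown raised more of the 10 genes than either other knockdown. It was the only comparison with control in which most were called higher: 7 rose (MDM2, ZMAT3, SPATA18, TP53I3, BAX, SESN1 and BTG2), TNFRSF10B fell, and CDKN1A and FAS were not called. In that comparison 47.3% of all genes tested were called, 22.8% higher and 24.6% lower. RBM17 knockdown lowered 5 (CDKN1A, SPATA18, BTG2, FAS and TNFRSF10B) and raised BAX and SESN1, against 54.7% of all genes called (25.4% higher, 29.3% lower). U2SURP knockdown lowered CDKN1A, BTG2 and TNFRSF10B and raised ZMAT3, 4 of 10 against 43.3% of all genes called (21.1% higher, 22.2% lower), a share near that of all genes. The 10 genes had a median log2 fold change of -0.22 in RBM17 knockdown, -0.03 in U2SURP knockdown and 0.47 in CHERP knockdown, beside -0.10, -0.02 and -0.0035 over all genes tested. Among all called genes the share called higher followed the scaling, at 37.1%, 50.2% and 55.3% in RBM17, U2SURP and CHERP knockdown under upper quartile scaling in place of 46.5%, 48.8% and 48.1%. The libraries of knockdown and control did not overlap for 8, 4 and 8 of the 10 genes in RBM17, U2SURP and CHERP knockdown, where 59.3%, 52% and 54.9% of all genes did not. The 3 comparisons share the control libraries.

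**Figure D1:**
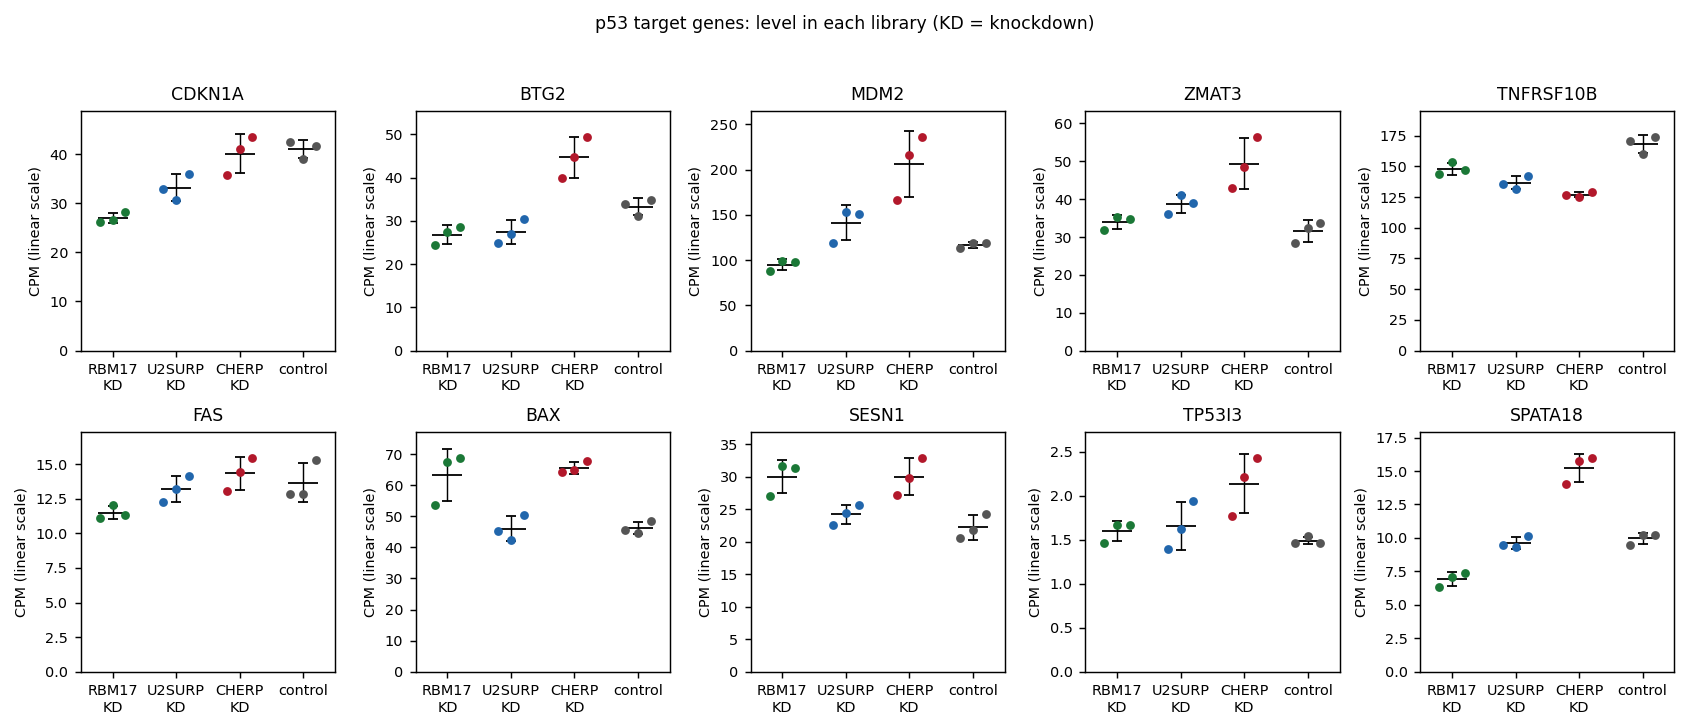
Each panel shows a p53 target gene, with CPM on a linear axis from 0 and a point for each library of RBM17, U2SURP and CHERP knockdown and control from left to right (libraries 1 to 3 within a group), and bars for the mean ± SD of 3 libraries. The CHERP knockdown points of MDM2 (166 to 237 CPM) and SPATA18 (14.1 to 16.0 CPM) lie above every other group, and those of TNFRSF10B (125 to 129 CPM) lie below.

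Among the brakes on the cell cycle, CDKN1A and BTG2 took different courses in CHERP knockdown. CDKN1A (ENSG00000124762; GRCh38 chromosome 6, 36676460 to 36687339, plus strand) encodes p21, the inhibitor of cyclin-dependent kinases through which p53 arrests the cycle. CDKN1A stood at 26.2, 26.6 and 28.2 CPM in RBM17 knockdown, 33.0, 30.6 and 35.9 CPM in U2SURP knockdown and 35.7, 41.0 and 43.5 CPM in CHERP knockdown, against 42.5, 39.0 and 41.7 CPM in control. The RBM17 and U2SURP knockdown libraries all lay below control and the CHERP knockdown libraries overlapped it. CDKN1A fell by 0.61 ± 0.068 in RBM17 knockdown on the log2 scale (adjusted p = 6.11e-08) and by 0.31 ± 0.068 in U2SURP knockdown (adjusted p = 0.000653). In CHERP knockdown its difference was -0.03 ± 0.068 (adjusted p = 0.71, 95% interval -0.17 to 0.11), and that sign turned under other settings, as given in the closing section. BTG2 (ENSG00000159388; chromosome 1, 203305491 to 203309602, plus strand) encodes an antiproliferative protein that also promotes deadenylation of mRNA.

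BTG2 stood at 24.4, 27.4 and 28.6 CPM in RBM17 knockdown, 24.9, 26.9 and 30.4 CPM in U2SURP knockdown and 40.0, 44.8 and 49.5 CPM in CHERP knockdown, against 33.9, 31.0 and 34.9 CPM in control. No knockdown group overlapped control, and only CHERP knockdown lay above it. BTG2 rose by 0.43 ± 0.080 in CHERP knockdown (adjusted p = 0.000125), while it fell by 0.31 ± 0.080 in RBM17 knockdown (adjusted p = 0.00232) and by 0.28 ± 0.080 in U2SURP knockdown (adjusted p = 0.00711). Without control library 3 the U2SURP knockdown value was -0.24 and was no longer called (adjusted p = 0.0513). Set directly against CHERP knockdown, BTG2 was 1.67-fold lower in RBM17 knockdown (-0.74 ± 0.080, adjusted p = 9.65e-08) and 1.63-fold lower in U2SURP knockdown (-0.71 ± 0.080, adjusted p = 8.82e-07).

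MDM2 had the largest change of the 10 against control, and ZMAT3 rose beside it. MDM2 (ENSG00000135679; chromosome 12, 68808176 to 68850686, plus strand) encodes the E3 ubiquitin ligase that marks p53 for degradation, and p53 activates it from a promoter inside the gene. MDM2 stood at 87.8, 99.4 and 97.9 CPM in RBM17 knockdown, 119, 153 and 151 CPM in U2SURP knockdown and 166, 216 and 237 CPM in CHERP knockdown, against 113, 119 and 119 CPM in control. All 3 CHERP knockdown libraries lay above every other library, and RBM17 knockdown lay below control without overlap. MDM2 was 1.76-fold higher in CHERP knockdown (0.82 ± 0.13, adjusted p = 0.000344). In RBM17 knockdown the difference was -0.30 ± 0.13 (adjusted p = 0.0711), and in U2SURP knockdown 0.27 ± 0.13 (adjusted p = 0.122). Fitted with the compared groups alone, both were called, at -0.26 (adjusted p = 0.000891) in RBM17 knockdown and 0.28 (adjusted p = 0.00605) in U2SURP knockdown. The fit of all 4 groups also took in spread from outside each comparison. The SD of MDM2 was 6.30 CPM in RBM17, 19.5 CPM in U2SURP and 36.3 CPM in CHERP knockdown, and 3.23 CPM in control. Without U2SURP knockdown library 1, the lowest of its group, MDM2 was called higher in U2SURP knockdown (0.36, adjusted p = 0.0206). MDM2 was also called lower in RBM17 knockdown under upper quartile scaling (-0.40, adjusted p = 0.0262) and among protein-coding genes alone (-0.37, adjusted p = 0.0174). Between knockdowns, MDM2 was 2.17-fold lower in RBM17 than in CHERP knockdown (-1.12 ± 0.13, adjusted p = 2.8e-05) and 1.49-fold lower in RBM17 than in U2SURP knockdown (-0.57 ± 0.13, adjusted p = 0.00414). It was 1.46-fold lower in U2SURP than in CHERP knockdown (-0.55 ± 0.13, adjusted p = 0.0091), a call that the fit of those groups alone did not give (adjusted p = 0.0815).

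ZMAT3 (ENSG00000172667; chromosome 3, 179017223 to 179072279, minus strand) encodes a zinc finger protein that binds RNA and acts in p53-dependent control of mRNA stability and splicing. ZMAT3 stood at 31.8, 35.2 and 34.8 CPM in RBM17 knockdown, 36.2, 41.1 and 38.9 CPM in U2SURP knockdown and 43.0, 48.6 and 56.5 CPM in CHERP knockdown, against 28.3, 32.5 and 33.8 CPM in control. The U2SURP and CHERP knockdown libraries lay above control and RBM17 knockdown overlapped it. ZMAT3 rose by 0.65 ± 0.085 in CHERP knockdown (adjusted p = 3.43e-06) and by 0.30 ± 0.084 in U2SURP knockdown (adjusted p = 0.00755), with 0.11 ± 0.084 in RBM17 knockdown (adjusted p = 0.3). The direct difference of U2SURP from CHERP knockdown was -0.35 ± 0.084 (adjusted p = 0.00381), and -0.23 (adjusted p = 0.0263) without CHERP knockdown library 3.

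The genes of cell death moved in different directions. TNFRSF10B (ENSG00000120889; chromosome 8, 23020133 to 23069179, minus strand) encodes the TRAIL receptor DR5 and was the only one of the 10 called the same way, lower, in all 3 knockdowns. TNFRSF10B stood at 144, 154 and 147 CPM in RBM17 knockdown, 136, 132 and 143 CPM in U2SURP knockdown and 127, 125 and 129 CPM in CHERP knockdown, against 170.4, 160.0 and 174 CPM in control. Every knockdown library lay below every control library. TNFRSF10B fell by 0.18 ± 0.050 in RBM17 knockdown (adjusted p = 0.00321), by 0.30 ± 0.050 in U2SURP knockdown (adjusted p = 3.34e-05) and by 0.41 ± 0.050 in CHERP knockdown (adjusted p = 4.07e-07). The RBM17 knockdown value ran from -0.28 under upper quartile scaling (adjusted p = 8.54e-06) to -0.13 over the alternatives. It kept its call in each, with an adjusted p of at most 0.0403. The median over all genes tested in that comparison was -0.10. DDIT3, the stress-induced factor CHOP that is known to activate TNFRSF10B, was 1.54-fold higher in RBM17 knockdown (37.9 ± 0.898 against 24.7 ± 2.32 CPM in control, adjusted p = 8.89e-09) and 1.65-fold higher in U2SURP knockdown (40.6 ± 1.67 CPM, adjusted p = 3.17e-09). In CHERP knockdown DDIT3 averaged 27.0 ± 1.05 CPM (0.13 ± 0.062, adjusted p = 0.0815). That last value was called under other settings, such as DESeq2 size factors (0.16, adjusted p = 0.0419). The part of DDIT3 in the level of TNFRSF10B was not tested.

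FAS (ENSG00000026103; chromosome 10, 88990582 to 89015785, plus strand) encodes the receptor of FAS ligand. FAS stood at 11.1, 12.1 and 11.3 CPM in RBM17 knockdown, 12.3, 13.2 and 14.2 CPM in U2SURP knockdown and 13.1, 14.4 and 15.5 CPM in CHERP knockdown, against 12.8, 12.9 and 15.3 CPM in control. The RBM17 knockdown libraries lay below control and the others overlapped it. FAS fell by 0.25 ± 0.078 in RBM17 knockdown (adjusted p = 0.0089), a value that rested on control library 3: without it the difference was -0.16 (adjusted p = 0.0824). In U2SURP knockdown the difference was -0.05 ± 0.077 (adjusted p = 0.645, 95% interval -0.21 to 0.11) and in CHERP knockdown 0.07 ± 0.077 (adjusted p = 0.504, 95% interval -0.09 to 0.23). ACTA2, whose exons overlap FAS on the other strand, averaged 10.8 ± 0.947 CPM in CHERP knockdown and 5.17 ± 0.482 CPM in control (1.06 ± 0.10, adjusted p = 1.06e-08). The strand setting of the counting is not given in the sources used here, so reads of such pairs may be mixed. Exons of CDKN1A, MDM2, TNFRSF10B, SESN1 and TP53I3 also overlap a gene on the other strand, and those of MDM2 a pseudogene on its own strand. The partner of TNFRSF10B is RHOBTB2, at group means of 5.05 to 6.75 CPM, and the protein-coding partner of MDM2 is the carboxypeptidase M gene, at 4.51 to 5.25 CPM, neither called in any knockdown against control.

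BAX (ENSG00000087088; chromosome 19, 48954815 to 48961798, plus strand) encodes the effector that permeabilises the outer mitochondrial membrane. BAX stood at 53.6, 67.5 and 68.9 CPM in RBM17 knockdown, 45.3, 42.4 and 50.5 CPM in U2SURP knockdown and 64.1, 65.0 and 67.8 CPM in CHERP knockdown, against 45.5, 44.7 and 48.5 CPM in control. RBM17 and CHERP knockdown lay above control without overlap, and U2SURP knockdown spanned the control range. BAX rose by 0.45 ± 0.077 in RBM17 knockdown (adjusted p = 3.49e-05) and by 0.51 ± 0.077 in CHERP knockdown (adjusted p = 1.29e-05), with -0.01 ± 0.077 in U2SURP knockdown (adjusted p = 0.966, 95% interval -0.17 to 0.15). Set directly, RBM17 knockdown was 1.37-fold higher than U2SURP knockdown (adjusted p = 4.68e-05), and U2SURP knockdown 1.43-fold lower than CHERP knockdown (adjusted p = 3.31e-05).

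SESN1, TP53I3 and SPATA18, which act in metabolism and mitochondria, all rose in CHERP knockdown. SESN1 (ENSG00000080546; chromosome 6, 108986437 to 109094819, minus strand) encodes sestrin 1, an inhibitor of mTORC1 signalling. SESN1 stood at 27.1, 31.6 and 31.3 CPM in RBM17 knockdown, 22.6, 24.4 and 25.6 CPM in U2SURP knockdown and 27.2, 29.8 and 32.9 CPM in CHERP knockdown, against 20.6, 21.8 and 24.3 CPM in control. Its RBM17 and CHERP knockdown ranges overlapped each other and lay above control. SESN1 rose by 0.43 ± 0.076 in RBM17 knockdown (adjusted p = 3.41e-05) and by 0.43 ± 0.076 in CHERP knockdown (adjusted p = 4.59e-05), with 0.12 ± 0.076 in U2SURP knockdown (adjusted p = 0.203). The difference of RBM17 from CHERP knockdown was 0.00081 ± 0.075, with a 95% interval of -0.15 to 0.16.

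TP53I3 (ENSG00000115129; chromosome 2, 24077433 to 24085861, minus strand), also called PIG3, encodes an oxidoreductase resembling quinone reductases and was the least abundant of the 10. TP53I3 stood at 1.46, 1.67 and 1.67 CPM in RBM17 knockdown, 1.40, 1.63 and 1.94 CPM in U2SURP knockdown and 1.77, 2.21 and 2.43 CPM in CHERP knockdown, against 1.47, 1.54 and 1.47 CPM in control. Only CHERP knockdown lay above control without overlap. TP53I3 rose by 0.52 ± 0.13 there (adjusted p = 0.00184), with 0.10 ± 0.13 in RBM17 knockdown (adjusted p = 0.544) and 0.15 ± 0.13 in U2SURP knockdown (adjusted p = 0.383). FAM228B, which overlaps TP53I3 on the other strand, went the other way in CHERP knockdown, at 4.78 ± 0.463 CPM against 5.86 ± 0.147 CPM in control (adjusted p = 0.00732).

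SPATA18 (ENSG00000163071; chromosome 4, 52051331 to 52097292, plus strand) encodes MIEAP, a protein of mitochondrial quality control. SPATA18 stood at 6.33, 7.07 and 7.37 CPM in RBM17 knockdown, 9.49, 9.29 and 10.1 CPM in U2SURP knockdown and 14.1, 15.7 and 16.0 CPM in CHERP knockdown, against 9.45, 10.2 and 10.2 CPM in control. RBM17 knockdown lay below and CHERP knockdown above all other libraries, while U2SURP knockdown overlapped control. SPATA18 fell by 0.52 ± 0.074 in RBM17 knockdown (adjusted p = 1.69e-06) and rose by 0.62 ± 0.073 in CHERP knockdown (adjusted p = 2.01e-07), with -0.05 ± 0.073 in U2SURP knockdown (adjusted p = 0.637). Set directly, SPATA18 was 2.20-fold lower in RBM17 than in CHERP knockdown (-1.14 ± 0.074, adjusted p = 7.24e-12). That was the largest estimate of any of the 10 in the 6 comparisons, with MDM2 in the same comparison (-1.12 ± 0.13) within its SE.

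**Figure D2:**
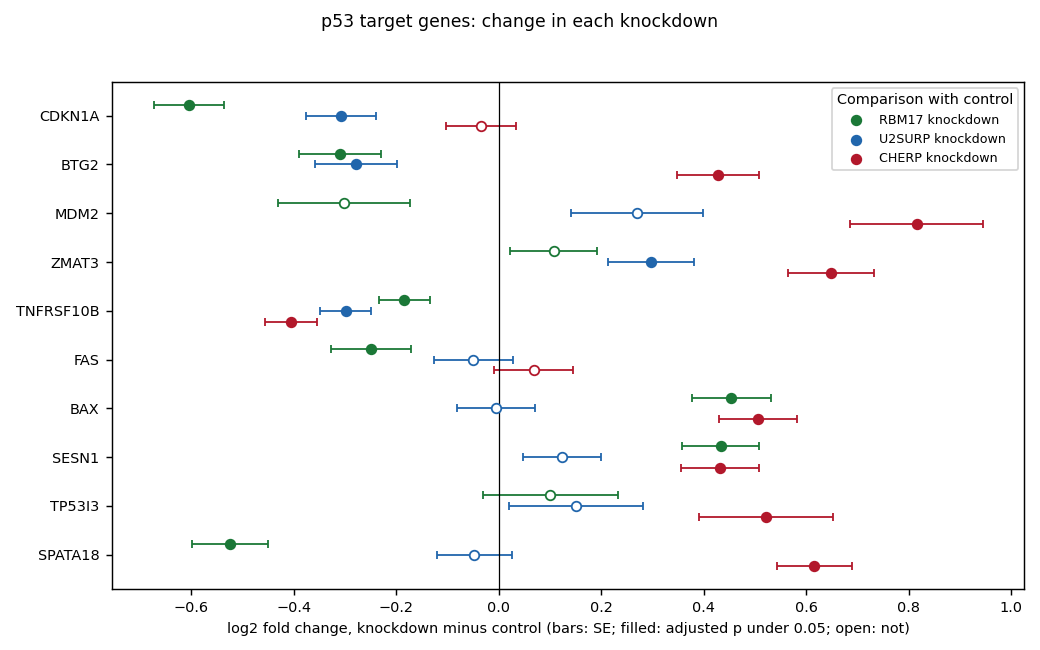
Log2 fold change of each p53 target gene (x axis, knockdown minus control) ± SE, with RBM17, U2SURP and CHERP knockdown from top to bottom within each gene, filled points for an adjusted p under 0.05 and open points for the rest. The points of MDM2, BTG2 and SPATA18 spread widest between knockdowns, with MDM2 from -0.30 to 0.82, and all 3 points of TNFRSF10B lie left of 0.

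Set directly against each other, the knockdowns differed in most of the 10 genes, and against either of the others CHERP knockdown had the higher level of every gene called except TNFRSF10B. In RBM17 against CHERP knockdown 7 were lower and TNFRSF10B was higher, where 51.6% of all genes were called (26.1% higher, 25.5% lower). In U2SURP against CHERP knockdown 8 were lower and none higher, where 27.9% of all genes were called (15% higher, 12.9% lower). That count was 6 to 8 over the alternatives, with TP53I3 losing its call in 5 of 13 (adjusted p up to 0.219) and MDM2 in the fit of those groups alone. Of the 2 not called there, TNFRSF10B was 0.11 ± 0.050 (adjusted p = 0.123) and FAS -0.12 ± 0.077 (adjusted p = 0.283). In RBM17 against U2SURP knockdown, BAX and SESN1 were higher and CDKN1A, MDM2, FAS and SPATA18 lower, where 44.5% of all genes were called (23% higher, 21.5% lower). The call of FAS (adjusted p = 0.0404) was lost in 6 of 14 alternatives, DESeq2 size factors (adjusted p = 0.081) among them. Libraries did not overlap for 8 of the 10 in RBM17 against CHERP knockdown, 7 in U2SURP against CHERP knockdown and 8 in RBM17 against U2SURP knockdown, beside 57.9%, 42.9% and 53.2% of all genes. Among all called genes the share called higher depended on the scaling in these direct comparisons too. Under upper quartile scaling it was 33.3% in place of 50.6% for RBM17 against CHERP knockdown, 36.4% in place of 51.7% for RBM17 against U2SURP knockdown, and 42.1% in place of 53.7% for U2SURP against CHERP knockdown. The fall of TNFRSF10B in CHERP relative to RBM17 knockdown was not called under that scaling (RBM17 minus CHERP 0.07, adjusted p = 0.18). BAX gained a call under it, lower in RBM17 than in CHERP knockdown (-0.20, adjusted p = 0.0215).

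The order of the 10 genes by level changed little. Per kilobase of exon, TNFRSF10B averaged 28.7 ± 0.970 CPM in RBM17 knockdown, 26.5 ± 1.05 in U2SURP knockdown and 24.6 ± 0.349 in CHERP knockdown, against 32.6 ± 1.43 in control. BAX came next in RBM17 knockdown (24.5 ± 3.27 CPM per kilobase), U2SURP knockdown (17.8 ± 1.58) and control (17.9 ± 0.757), and in CHERP knockdown (25.4 ± 0.751) it stood beside TNFRSF10B within their spread. CDKN1A, BTG2 and MDM2 followed, with MDM2 at 7.16 ± 0.474 in RBM17 knockdown, 10.6 ± 1.47 in U2SURP knockdown and 15.5 ± 2.73 in CHERP knockdown, against 8.82 ± 0.243 CPM per kilobase in control. In CHERP knockdown the MDM2 libraries (12.5 to 17.8 CPM per kilobase) overlapped those of BTG2 and of CDKN1A, while BTG2 (16.2 ± 1.73) lay above CDKN1A (13.1 ± 1.31) without overlap. In control CDKN1A (13.5 ± 0.604) stood above MDM2 per kilobase. The length is that of all annotated exons merged, 13284 bases for MDM2 and 3050 for CDKN1A, so this order depends on the annotation. Before division by length MDM2 stood higher in control, at 117 CPM against 41.1 CPM. SESN1, ZMAT3, FAS, SPATA18 and TP53I3 came after them in that order in all 4 groups. TP53I3 was lowest throughout, at 0.692 ± 0.0514, 0.716 ± 0.119 and 0.925 ± 0.145 CPM per kilobase in RBM17, U2SURP and CHERP knockdown and 0.645 ± 0.0186 in control.

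MDM2 and CDKN1A, the pair most often read as p53 output, moved by unequal amounts. The ratio of their raw counts, which no library scaling can alter, was taken after their values had been seen and is given as a description. There were 3.36, 3.74 and 3.47 counts of MDM2 per count of CDKN1A in RBM17 knockdown, 3.60, 5.02 and 4.21 in U2SURP knockdown and 4.65, 5.27 and 5.43 in CHERP knockdown, against 2.67, 3.04 and 2.86 in control. Every knockdown library lay above every control library. In RBM17 knockdown both genes lay below control, CDKN1A by more (-0.61, against -0.30 for MDM2, which was not called). In U2SURP knockdown CDKN1A fell by 0.31 and MDM2 was at 0.27 without a call, and in CHERP knockdown MDM2 rose by 0.82 and CDKN1A was not called.

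MDM4, a relative of MDM2 that binds and inhibits p53 without being a strong ligase itself, stood at 123, 121 and 122 CPM in RBM17 knockdown, 189, 202 and 189 CPM in U2SURP knockdown and 179, 179 and 179.8 CPM in CHERP knockdown, against 170.1, 175 and 166 CPM in control. RBM17 knockdown lay far below all other groups. MDM4 fell by 0.48 ± 0.047 in RBM17 knockdown (adjusted p = 6.71e-09) and rose by 0.18 ± 0.047 in U2SURP knockdown (adjusted p = 0.00285), with 0.07 ± 0.047 in CHERP knockdown (adjusted p = 0.23). Of 19 tested regulators of p53, 10 rose and 4 fell in RBM17 knockdown, 12 rose and 2 fell in U2SURP knockdown, and 9 rose and 3 fell in CHERP knockdown, with median log2 changes of 0.13, 0.18 and 0.13. As shares of the list these were 52.6%, 63.2% and 47.4% higher and 21.1%, 10.5% and 15.8% lower, beside 25.4%, 21.1% and 22.8% higher and 29.3%, 22.2% and 24.6% lower over all genes tested. USP7, the deubiquitinase of MDM2 and p53, rose by 0.54 ± 0.052 in RBM17 knockdown (adjusted p = 4.9e-09), and ATM, the kinase that activates p53 after double-strand breaks, fell by 0.40 ± 0.050 there (adjusted p = 3.6e-07). RPL5, a ribosomal protein that can bind MDM2, rose by 0.43 ± 0.064 in U2SURP knockdown (adjusted p = 7.68e-06) and by 0.48 ± 0.064 in CHERP knockdown (adjusted p = 1.26e-06). CHEK1, a checkpoint kinase, rose in all 3, by 0.51 ± 0.061, 0.48 ± 0.061 and 0.51 ± 0.061 in RBM17, U2SURP and CHERP knockdown (adjusted p = 1.65e-07, 9.05e-07 and 2.19e-07).

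**Figure D3:**
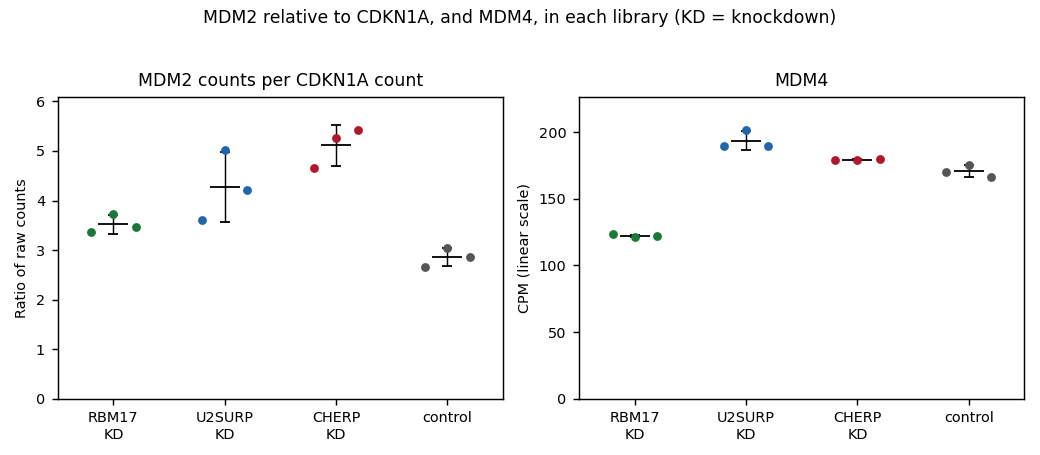
Counts of MDM2 per count of CDKN1A (left), and CPM of MDM4 (right), on linear axes from 0, with a point for each library of RBM17, U2SURP and CHERP knockdown and control from left to right and bars for the mean ± SD of 3 libraries. The ratio lies above control in every knockdown library, and MDM4 lies low in RBM17 knockdown (121 to 123 CPM against 166 to 175 CPM in control).

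Other p53 targets were counted in a list of 74, of which 73 were tested. In CHERP knockdown 38 rose and 13 fell, in RBM17 knockdown 25 rose and 22 fell, and in U2SURP knockdown 25 rose and 14 fell, with medians of 0.20, 0.07 and 0.11. The shares called higher were 52.1% in CHERP, 34.2% in RBM17 and 34.2% in U2SURP knockdown, beside 22.8%, 25.4% and 21.1% of all genes tested. The shares called lower, 17.8%, 30.1% and 19.2%, stood beside 24.6%, 29.3% and 22.2% of all genes, so those in RBM17 and U2SURP knockdown were near the background. In RBM17 knockdown the split followed the scaling, with 20 higher and 29 lower under upper quartile scaling.

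No cell cycle or repair target was called lower in CHERP knockdown, and both lists held genes called in each direction in RBM17 knockdown. Both lists are short, at 7 and 6 genes. Of all genes tested, 22.8% were called higher and 24.6% lower in CHERP knockdown. The same shares were 25.4% and 29.3% in RBM17 knockdown, and 21.1% and 22.2% in U2SURP knockdown. Of 7 cell cycle targets, 4 rose, none fell and 3 were not called in CHERP knockdown, while 2 rose and 3 fell in RBM17 knockdown, and 3 rose and 1 fell in U2SURP knockdown. CCNG1, cyclin G1, rose by 0.24 ± 0.072 in CHERP knockdown (adjusted p = 0.00699) and fell by 0.66 ± 0.072 in RBM17 knockdown (adjusted p = 5.41e-08). RPRM, the G2 arrest mediator reprimo, rose by 0.80 ± 0.070 in RBM17 knockdown (adjusted p = 1.24e-09) and by 0.52 ± 0.070 in U2SURP knockdown (adjusted p = 2.06e-06). Of 6 repair targets, 5 rose and none fell in CHERP knockdown, 4 rose and none fell in U2SURP knockdown, and 4 rose and 2 fell in RBM17 knockdown. XPC, the damage sensor of nucleotide excision repair, rose by 0.34 ± 0.060 in CHERP knockdown (adjusted p = 3.95e-05), as did its partner in damage recognition DDB2 by 0.36 ± 0.079 (adjusted p = 0.000695). DDB2 fell by 0.74 ± 0.080 in RBM17 knockdown (adjusted p = 1.16e-07). PCNA, the sliding clamp of DNA polymerases, rose in all 3, by 0.51 ± 0.062, 0.37 ± 0.062 and 0.43 ± 0.062 in RBM17, U2SURP and CHERP knockdown (adjusted p = 2.61e-07, 3.09e-05 and 3.41e-06).

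Of 12 tested apoptosis targets, 7 rose and 2 fell in CHERP knockdown, 3 rose and 4 fell in U2SURP knockdown, and 2 rose and 3 fell in RBM17 knockdown. As shares of the list these were 58.3%, 25% and 16.7% higher and 16.7%, 33.3% and 25% lower. Over all genes tested 22.8%, 21.1% and 25.4% were called higher and 24.6%, 22.2% and 29.3% lower in CHERP, U2SURP and RBM17 knockdown. BBC3, the BH3-only protein PUMA, rose by 0.39 ± 0.060 in CHERP knockdown (adjusted p = 9.47e-06) and by 0.44 ± 0.060 in U2SURP knockdown (adjusted p = 2.14e-06). PERP, a membrane protein of desmosomes and apoptosis, fell by 0.22 ± 0.066 in CHERP knockdown (adjusted p = 0.00723) and by 0.47 ± 0.067 in U2SURP knockdown (adjusted p = 4.45e-06). Of 12 metabolic targets, 5 rose and 6 fell in RBM17 knockdown, 2 rose and 3 fell in U2SURP knockdown, and 5 rose and 3 fell in CHERP knockdown. GPX1, a glutathione peroxidase, averaged 106.9 CPM in RBM17 knockdown and 57.0 CPM in control (0.91 ± 0.062, adjusted p = 2.27e-11). TIGAR, a phosphatase that lowers glycolytic flux, rose in all 3, by 0.76 ± 0.074, 0.26 ± 0.074 and 0.50 ± 0.074 in RBM17, U2SURP and CHERP knockdown (adjusted p = 6.6e-09, 0.00618 and 4.97e-06). SESN2, a relative of SESN1 that also answers to ATF4, rose by 0.89 ± 0.062 in RBM17 knockdown (adjusted p = 3.17e-11). FUCA1, the lysosomal fucosidase, fell in all 3, by 0.40 ± 0.069, 0.53 ± 0.069 and 0.61 ± 0.069 in RBM17, U2SURP and CHERP knockdown (adjusted p = 2.56e-05, 1.24e-06 and 8.8e-08).

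Of 5 feedback targets, 3 rose and none fell in CHERP knockdown, 2 rose and none fell in U2SURP knockdown, and 1 rose and 2 fell in RBM17 knockdown. Beside these and the following counts, 22.8%, 21.1% and 25.4% of all genes tested were called higher in CHERP, U2SURP and RBM17 knockdown. The shares called lower were 24.6%, 22.2% and 29.3%. PPM1D, the phosphatase WIP1 that switches the p53 response off, rose by 0.26 ± 0.064 in RBM17 knockdown (adjusted p = 0.00139) and by 0.38 ± 0.064 in U2SURP knockdown (adjusted p = 3.04e-05). Of 9 secreted and surface targets, 2 rose and 3 fell in CHERP knockdown, 1 rose and 1 fell in U2SURP knockdown, and 2 rose and none fell in RBM17 knockdown. GDF15, a stress cytokine, averaged 5.29 CPM in U2SURP knockdown and 6.04 CPM in CHERP knockdown, against 1.37 CPM in control (1.95 ± 0.38, adjusted p = 0.00299, and 2.14 ± 0.38, adjusted p = 0.00155). Of 22 further targets, 9 rose and 6 fell in RBM17 knockdown, 10 rose and 5 fell in U2SURP knockdown, and 12 rose and 5 fell in CHERP knockdown. EPS8L2, an actin-linked adaptor, rose by 1.23 ± 0.11 in CHERP knockdown (adjusted p = 4.03e-09) and fell by 1.06 ± 0.12 in RBM17 knockdown (adjusted p = 4.96e-08).

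**Figure D4:**
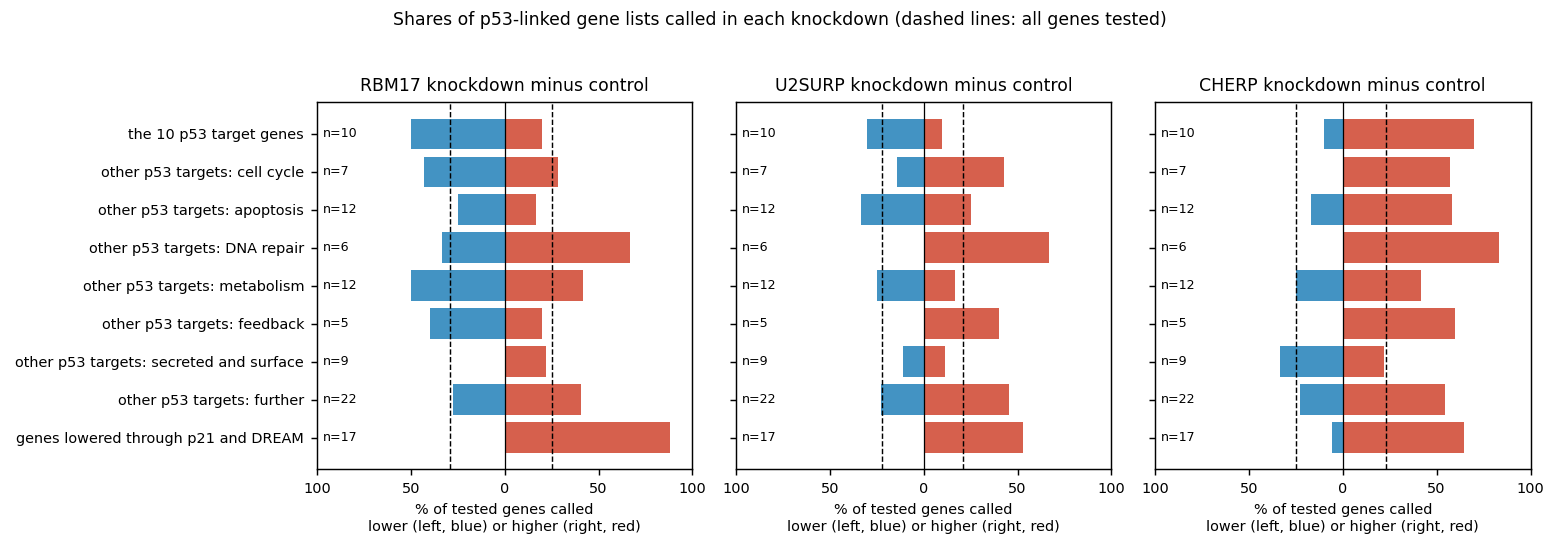
Percent of the tested genes of each list called lower (blue, to the left) or higher (red, to the right) in RBM17, U2SURP and CHERP knockdown minus control from left to right, with n the genes tested and dashed lines the shares over all genes tested. Genes known to be lowered through p21 and the DREAM complex reach furthest to the right in RBM17 knockdown (15 of 17), and 7 of the 10 p53 target genes were called higher in CHERP knockdown, with 2 of 10 in RBM17 and 1 of 10 in U2SURP knockdown.

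p21 is known to lower a set of cell cycle genes through the DREAM repressor complex, and of 17 such genes 15 rose and none fell in RBM17 knockdown, with a median of 0.61. In U2SURP knockdown 9 rose and none fell (median 0.14), and in CHERP knockdown 11 rose and 1, AURKB, fell (median 0.23). The shares called higher were 88.2%, 52.9% and 64.7% in RBM17, U2SURP and CHERP knockdown, beside 25.4%, 21.1% and 22.8% of all genes tested. The part of CDKN1A in these counts was not tested. CDC20, an activator of the anaphase-promoting complex, rose by 0.89 ± 0.052 in RBM17 knockdown (adjusted p = 3.31e-12) and by 0.49 ± 0.052 in CHERP knockdown (adjusted p = 4.79e-08), where CDKN1A was not called. TOP2A, topoisomerase II alpha, rose by 0.39 ± 0.061 in U2SURP knockdown (adjusted p = 1.18e-05) and by 0.56 ± 0.061 in CHERP knockdown (adjusted p = 6.01e-08). In the integrated stress response list, 6 of 8 rose and 1 fell in RBM17 knockdown, 7 rose and 1, ATF4, fell in U2SURP knockdown, and 5 rose and none fell in CHERP knockdown. The shares of that list called higher were 75%, 87.5% and 62.5%, beside 25.4%, 21.1% and 22.8% of all genes tested. Of all genes tested 29.3%, 22.2% and 24.6% were called lower in RBM17, U2SURP and CHERP knockdown. ATF5, a transcription factor of that response, averaged 16.2 CPM in U2SURP and 16.5 CPM in CHERP knockdown, against 6.55 CPM in control (1.30 ± 0.084, adjusted p = 4.65e-11, and 1.33 ± 0.084, adjusted p = 8.79e-12).

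Among 6 tested long non-coding RNAs linked to p53, 1 rose and 4 fell in RBM17 knockdown, with a median of -0.92, and 2 rose and 2 fell in each of U2SURP and CHERP knockdown. The shares called lower were 66.7%, 33.3% and 33.3% in RBM17, U2SURP and CHERP knockdown, beside 29.3%, 22.2% and 24.6% of all genes tested. Those called higher were 16.7%, 33.3% and 33.3%, beside 25.4%, 21.1% and 22.8%. PURPL, a p53-induced RNA that restrains p53, averaged 12.9 CPM in RBM17 knockdown, 24.7 CPM in U2SURP knockdown and 24.2 CPM in CHERP knockdown, against 30.4 CPM in control. It fell by 1.24 ± 0.073 in RBM17 knockdown (adjusted p = 3.37e-12), by 0.30 ± 0.072 in U2SURP knockdown (adjusted p = 0.00143) and by 0.33 ± 0.072 in CHERP knockdown (adjusted p = 0.000496). MIR34AHG, the host transcript of miR-34a, averaged 9.62, 14.8 and 20.1 CPM in RBM17, U2SURP and CHERP knockdown, against 26.9 to 29.3 CPM in the control libraries. It fell in all 3, by 1.54 ± 0.16, 0.92 ± 0.16 and 0.48 ± 0.16 (adjusted p = 1.66e-05, 0.000996 and 0.0326). PURPL thus fell in CHERP knockdown, where 7 of the 10 protein-coding targets rose. NEAT1, the scaffold of paraspeckles, fell by 1.13 ± 0.066 in RBM17 knockdown (adjusted p = 3.04e-12). PVT1, the neighbour of MYC, rose by 0.31 ± 0.076 in U2SURP knockdown (adjusted p = 0.00198) and by 0.51 ± 0.076 in CHERP knockdown (adjusted p = 6.48e-06).

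The genes whose 4 group means most resembled those of CDKN1A, over 12 libraries and 10929 candidate genes, were UHRF2, TTC32, SAMD8, NFAT5 and TMEM97, with a root mean square difference of 0.018 to 0.035 on the log2 scale. Those most like MDM2 were SEMA7A, PPP1R10, UNC5CL, ABRAXAS1 and UCP3, at 0.048 to 0.075. Candidates were protein-coding genes averaging at least 5 CPM, so TP53I3 could not be chosen. No p53 target gene among the candidates was in the nearest 5 of either.

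Within groups the 10 genes tended to be low or high in the same library, a pattern noticed in the values and given as a description. RBM17 knockdown library 1 was the lowest of its group for 10 of the 10, where it was lowest for 40.8% of all genes tested. CHERP knockdown library 3 was the highest of its group for 10 of the 10 (32.9% of all genes) and library 1 the lowest for 9 (37.4%). U2SURP knockdown library 3 was the highest for 8 (32.1%), and control library 3 the highest for 7 (43.0%).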

How the data were processed

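The authors deposited raw counts per Ensembl gene for each of 12 libraries. Per the labels' protocols, libraries were made from total RNA with a stranded mRNA kit. The submitters' processing notes name HISAT2 2.0.5, SAMtools, HTSeq and GRCh38 without saying what each did. Which annotation release was counted, and with which strand setting, is not stated there. Of 60554 gene identifiers, 56996 were named by GENCODE 29 and 3558 kept their identifier.

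Counts were filtered with filterByExpr (minimum count 10), and TMM factors were computed. A robust quasi-likelihood fit in edgeR 4.0.16 (R 4.3.3) held the 4 groups, and p-values were adjusted over 29003 genes. SEs were derived from each log2 fold change and its F statistic (change over root F), with a median over genes of 0.136 in RBM17 knockdown against control, and the common biological coefficient of variation was 0.0866. At 252505520 to 320986785 counts per library the spread between libraries, not counting error, sets the precision of the 10 genes. Libraries of a group differed beyond sampling noise (chi-square values of 11.8 to 51.9 per gene), and none was treated as a duplicate. The fit was tested on simulated counts.

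The members and lists were chosen with earlier results of these data known. All 10 were named in every comparison, with MDM4, DDIT3, the siRNA targets, examples from the 2 called genes in each direction with the smallest p in each described list, and the 5 genes most like CDKN1A and MDM2 in their group means. Not every gene so selected is reported here. Overlapping genes beside FAS and TP53I3, and the count ratio, were added after values were seen. The planned genome search around each start was replaced by RefSeq promoter windows and GENCODE transcripts, since no genome was used here. Alternatives were DESeq2 or upper quartile scaling, the Wald test of DESeq2 1.42.0, leaving out the filter, fitting 2 groups at a time, protein-coding or non-mitochondrial genes alone, a threshold of 0.01 and each library left out. Figures were drawn with matplotlib 3.10.9.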

Additional observations from a re-analysis of the deposited data

How the results depend on the processing

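In CHERP knockdown 8 of the 10 genes were called, 7 higher and TNFRSF10B lower, under every alternative run. With the other alternatives the number called was 6 to 8 in RBM17 and 3 to 5 in U2SURP knockdown. Leaving out each library in turn gave 14295 to 15585 called genes in RBM17, 10603 to 12327 in U2SURP and 11958 to 13368 in CHERP knockdown against control, and 11088 to 12628, 13342 to 14629 and 6200 to 7519 in RBM17 against U2SURP, RBM17 against CHERP and U2SURP against CHERP knockdown. Members called then numbered 6 to 7, 3 to 5 and 8 against control, and 5 to 7, 7 to 8 and 7 to 8 in those direct comparisons. At an adjusted p under 0.01, U2SURP against CHERP knockdown had 5376 called genes in place of 8078. No paired analysis was possible because replicates were numbered by accession, which links no libraries across groups.

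Of 830 alternative values of the 10 genes, 770 kept their direction and side of the threshold, 18 lost and 15 gained a call, and 27 turned sign, each for a value that was not called. BAX in U2SURP knockdown against control was 0.0227 with DESeq2 size factors, 0.0019 with upper quartile scaling, 0.0226 by the DESeq2 Wald test, 0.0080 in the fit of 2 groups, 0.0373 without mitochondrial genes, and 0.0303 without RBM17 knockdown library 2 and control library 3, an alternative added after seeing the data. FAS there was 0.0388 in that added alternative. CDKN1A in CHERP knockdown was 0.0178 with upper quartile scaling and 0.0025 without mitochondrial genes. SESN1 in RBM17 against CHERP knockdown was -0.151 with upper quartile scaling, -0.0801 with protein-coding genes alone and -0.0390 in the added alternative.

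Leaving out 1 library at a time turned the sign of these uncalled values. Against control, BAX in U2SURP knockdown ran from -0.0759 to 0.0514, FAS in U2SURP knockdown from -0.102 to 0.0383, FAS in CHERP knockdown from -0.0215 to 0.157 and CDKN1A in CHERP knockdown from -0.130 to 0.0421. In RBM17 against CHERP knockdown, BAX ran from -0.115 to 0.0560 and SESN1 from -0.0630 to 0.126. In RBM17 against U2SURP knockdown, BTG2 ran from -0.0794 to 0.050 and TP53I3 from -0.118 to 0.0802.

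TP53I3 lost its call in U2SURP against CHERP knockdown without U2SURP knockdown library 1 or 2 or CHERP knockdown library 2 or 3 and in the fit of 2 groups (adjusted p = 0.054 to 0.219), and in RBM17 against CHERP knockdown without CHERP knockdown library 3 (-0.27, adjusted p = 0.135). FAS in RBM17 against CHERP knockdown was -0.21 without CHERP knockdown library 3. FAS in RBM17 against U2SURP knockdown lost its call without RBM17 knockdown library 1 or 3 or U2SURP knockdown library 2 or 3 (adjusted p = 0.0811 to 0.197), with DESeq2 size factors (adjusted p = 0.081) and by the Wald test (adjusted p = 0.0816). Upper quartile scaling moved the median of all genes by -0.15 in RBM17 against CHERP and by -0.11 in RBM17 against U2SURP knockdown. The causes were not tested.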
